A study of Homo sapiens with 2 samples.

Results

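The regions described here are the peaks of Flag-tagged Evi1Δ324 that rested on 8 tags or more in the interior of 13 autosomes (chromosomes 1, 2, 4, 6, 8, 9, 10, 11, 12, 13, 15, 18 and 21). A tag is a sequenced fragment end counted in the peak. Interior means a peak midpoint more than 5 Mb from the chromosome end, outside centromeric, variable and stalk bands, and more than 1 Mb from a centromeric band. On chromosomes 13, 15 and 21 only the long-arm end was limiting. They were chosen by the tag count of the list and by position. Of the 6943 peaks in the list, 3879 lay in these regions, and 354 of them reached the tag limit, which is 9.13% (exact 95% interval 8.24 to 10.1) of the peaks of the same regions. The 2494 peaks of the same regions with exactly 5 tags, the fewest in the list, served for comparison.

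SKOV-3 is an established human ovarian carcinoma line. Its cells were transfected with a plasmid for Flag-tagged Evi1Δ324, whose name gives a CMV promoter, and were harvested 3 days later. They were fixed for 10 minutes in formaldehyde at 1%, and chromatin sheared to 200 to 500 bp was precipitated with the Flag M2 antibody. The series holds 1 ChIP library and 1 input library from the same transfected cells; the input was not analysed here, and no library from cells without the construct is among the samples used. The ChIP library is a single sample of a transfected culture, so the protein was tagged and supplied from a plasmid.

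EVI1 is the zinc finger transcription factor encoded by MECOM. It contacts DNA through separate groups of zinc fingers, one that binds GATA-like sites and one that binds ETS-like sites, and Δ324 is a splice form that lacks part of the first group. EVI1 is best known from blood stem cells and myeloid leukaemia, and its locus is often gained in ovarian carcinoma. A ChIP peak marks a place where more fragments were recovered than in the background around or beneath it, and places with more tags are less exposed to counting error.

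All comparisons are within this 1 peak list. Peaks are not replicates, so no p-value is given, and the exact 95% intervals (Clopper-Pearson) cover counting error only. Tags, fold and width come from the same measurement, and the tag count chose the peaks. Values of these are therefore descriptions. Positions along the genome were not used by the tag limit.

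The label of well-supported peaks holds for tags but not for every fold. The 354 peaks held 5772 tags, 23.4% of the 24682 tags in peaks of the same regions and 7.58% of the 76115 in the list. Their median was 10 tags (quartiles 9 and 14, highest 306). Just inside the limit, 86 peaks (24.3%) had exactly 8 tags and a median fold of 16.2. Just outside it, 254 peaks had 7 tags and also a median fold of 16.2, and a further 777 had 6 tags. The fold is the authors' value, read as the ratio of a peak's height to its background. Over the 354 peaks it had a median of 16.2 and ran from 2.85 to 63.7, against a median of 14.7 and a range of 6.66 to 24.5 in the 5-tag peaks.

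The spread of fold was thus wider in both directions at 8 tags or more. A fold of 20 or more was reached by 104 of the 354 peaks (29.4%, interval 24.7 to 34.4), by 147 of the 2494 5-tag peaks (5.89%) and by 11.6% of the whole list. A fold of 30 or more was reached by 18 (5.08%), against 0.951% of the whole list. Few tags limit the height a peak can have, so these shares are bound up with the tag limit and nothing is read from them. At the other end, 43 peaks (12.1%, interval 8.93 to 16.0) had a fold under 10, against 5 of the 5-tag peaks (0.200%).

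The peaks were also wider. Their median width was 204 bp (quartiles 171 and 256, range 90 to 1697), against 119 bp in the 5-tag peaks (51 to 136), and 337 of the 354 were wider than the widest 5-tag peak. Tag density differed less, with medians of 52.0 and 42.0 tags per kb.

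**Figure D1:**
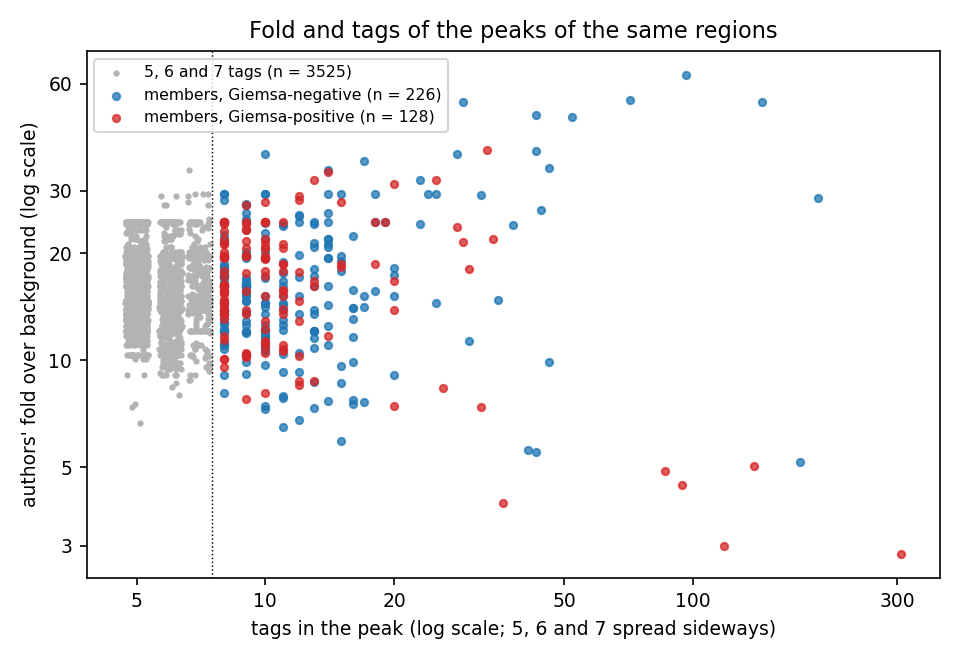
Each point is a peak of the same regions, with its tags on the horizontal axis and the authors' fold on the vertical axis, both on log scales; grey points have 5, 6 or 7 tags. To the right of the dotted line the 354 peaks fan out, from the 4q35.1 peak at a fold of 63.7 to the 1p22.2 peak with 306 tags and a fold of 2.85.

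The peaks with most tags fell into sets of high and low fold. Of the 46 peaks with 20 tags or more, 23 had a fold of 20 or more, 14 a fold under 10 and 9 a value between. These 46 held 43.9% of the tags of all 354. Of the 18 peaks with a fold of 30 or more, 13 were among them.

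The 10 peaks with the highest fold had 10 to 145 tags, and 9 of them lay in Giemsa-negative bands, the light bands of a stained chromosome, which are rich in genes and replicate early. Such bands held 226 of all 354 peaks (63.8%) and 64 of the 104 with a fold of 20 or more (61.5%). Some of the 9 adjoined each other in 4q35.1, so nothing is read from their number. Band 4q35.1 gave 4 of the 10. On hg18 these were chr4:186124230-186125120 with a fold of 63.7 and 96 tags, chr4:186123377-186124207 with 53.9 and 71 tags, chr4:185008894-185010590 with 53.3 and 145 tags, and chr4:186125130-186125611 with 38.8 and 43 tags. The band holds IRF2, an interferon regulatory factor, and ACSL1, which activates long-chain fatty acids. Gene names here were looked up by band in GRCh38.p14. The distance from a peak to a gene was not determined, and no gene is named as bound.

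The peak chr11:65945731-65945998 in 11q13.1 had a fold of 53.3 with 29 tags and stood alone, with the nearest other peak of 8 tags or more 862 kb away. In 11q21, the band of the Notch coactivator gene MAML2, chr11:95375543-95376138 had a fold of 49.0 and 43 tags. In 1q44, chr1:241710259-241710914 had a fold of 48.4 and 52 tags. This was the only peak of 8 tags or more in the interior stretch of that band, which held 0 5-tag peaks. That stretch has only 0.55 Mb of placed length, and 5-tag peaks averaged 15.5 per 10 Mb over the regions. Nothing is therefore read from the 0.

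The peak chr18:9805287-9805811 had a fold of 39.2 and 33 tags, in 18p11.22, the Giemsa-positive exception among the 10 and the band of the vesicle-traffic GTPase gene RAB31. The last places were taken by chr1:12072655-12073081 in 1p36.22 (28 tags) and chr2:46154269-46154459 in 2p21 (10 tags), each with a fold of 38.0. Band 2p21 holds EPAS1, the gene of a hypoxia-inducible factor subunit. The 2p21 peak rested on the fewest tags of the 10.

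The 10 peaks with most tags were of another make-up. Only 3 were also among the 10 of highest fold, all in 4q35.1, and 6 had a fold under 10. The deepest was chr1:91625360-91625737 in 1p22.2, with 306 tags in 378 bp and a fold of 2.85. Similar values were found at chr8:70764856-70765186 in 8q13.3 (178 tags, fold 5.18) and chr2:132729158-132729731 in 2q21.2 (139 tags, fold 5.05). They recurred at chr11:84872651-84872934 in 11q14.1 (118 tags, fold 2.99), chr10:130152603-130152922 in 10q26.2 (94 tags, fold 4.46) and chr2:229753721-229753956 in 2q36.3 (86 tags, fold 4.89). The exception was chr12:94572335-94573587 in 12q22, the band of the netrin gene NTN4. It had 196 tags over 1253 bp and a fold of 28.7.

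In all, 11 of the 354 peaks had a fold below 6.66, the lowest of any 5-tag peak, and 9 of these 11 had 20 tags or more. Tags per kb divided by fold gives a background index, a rough measure of the density against which the fold was taken; how the authors set that background is not known. It ran from 7.06 to 284 (median 59.0) in these 11, and from 1.38 to 3.90 (median 1.67) in the 18 peaks with a fold of 30 or more, against a median of 2.72 in the 5-tag peaks. Both sets were picked by fold, which is part of the index, so it is given as a description. The tag counts of the 11 ran from 11 to 306, and 5 of them lay in Giemsa-negative bands, beside 226 of all 354.

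Peaks of 8 tags or more were placed in light bands more often than 5-tag peaks. Giemsa-negative bands held 226 of 354 (63.8%, interval 58.6 to 68.9), against 1131 of 2494 5-tag peaks (45.3%, interval 43.4 to 47.3) and 42.6% of placed length, the sequence assembled into contigs. The darkest class, gpos100, which is poor in genes and replicates late, held 19 (5.37%, interval 3.26 to 8.25), against 494 (19.8%, interval 18.3 to 21.4) and 20.8% of placed length. Both pairs of intervals were apart. The lightest of the stained classes, gpos25, held 12.1% against 6.78%, also with intervals apart, and gpos75 held 6.21% against 12.8%. For gpos50 the shares were 12.4% and 15.3%, with intervals that overlapped.

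Per placed length, the 354 peaks reached a ratio of 1.50 (interval 1.38 to 1.62) in Giemsa-negative bands and 0.257 (0.156 to 0.396) in gpos100 bands. The 5-tag peaks lay near 1 in both, at 1.06 and 0.950. The order over the 5 classes of the peaks of 8 tags or more was thus gpos25 (1.82), Giemsa-negative (1.50), gpos50 (0.811), gpos75 (0.427) and gpos100 (0.257). The intervals of neighbours in this order overlapped except between Giemsa-negative and gpos50.

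The shift was present by 8 to 9 tags, and the Giemsa-negative share was highest at 14 to 19 tags. The Giemsa-negative share was 45.3% at 5 tags, 48.3% at 6, 52.4% at 7, 60.7% at 8 to 9, 61.2% at 10 to 13 and 83.0% at 14 to 19. At 14 to 19 tags (n = 47) the interval, 69.2 to 92.4, was apart from that of 8 to 9 tags (52.1 to 68.9). It overlapped those of 10 to 13 tags (51.9 to 69.9) and of 20 to 99 tags. At 20 to 99 tags the share was 62.5%, where only 40 peaks remained and the interval ran from 45.8 to 77.3. Of the 6 peaks with 100 tags or more, 3 were Giemsa-negative. The gpos100 share was 19.8%, 17.0% and 12.99% at 5, 6 and 7 tags, and between 4.26% and 5.71% in each class from 8 to 99 tags, with no order among those classes beyond their intervals.

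**Figure D2:**
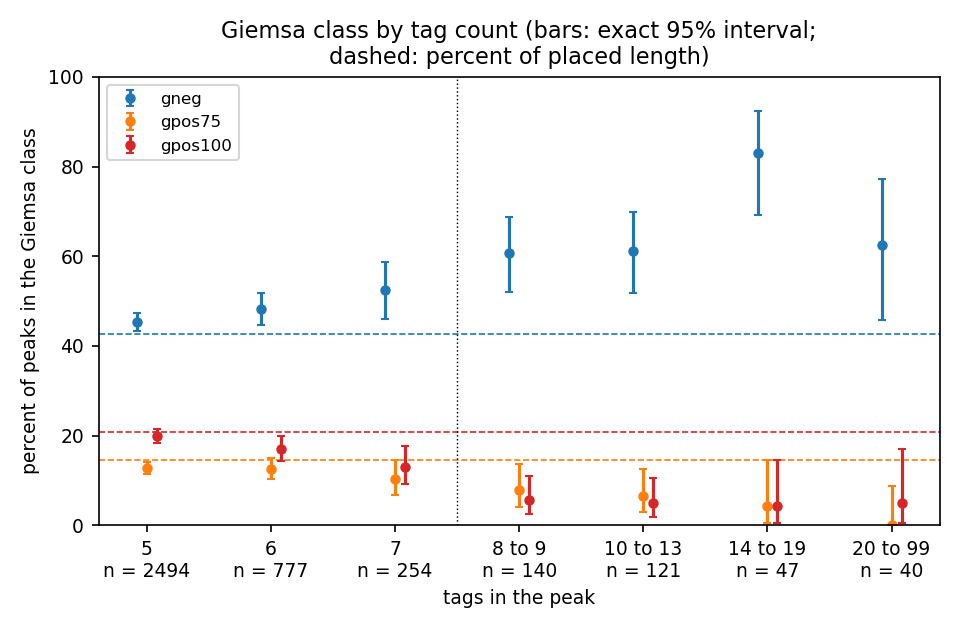
The percentage of peaks in Giemsa-negative, gpos75 and gpos100 bands is plotted by tags in the peak, with exact 95% intervals as bars and each class's share of placed length as a dashed line; the dotted line is the limit of 8 tags. The Giemsa-negative share lies above its dashed line throughout and goes from 45.3% at 5 tags to 60.7% at 8 to 9, while gpos100 goes from 19.8% to 5.71%.

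The difference was also present at matched fold. Among peaks with a fold of 10 to under 20, the Giemsa-negative share was 64.7% (n = 207, interval 57.8 to 71.2) at 8 tags or more and 45.4% (n = 2342, interval 43.4 to 47.4) at 5 tags. Among those with a fold of 20 or more, it was 61.5% (n = 104, interval 51.5 to 70.9) and 44.9% (n = 147, interval 36.7 to 53.3), where the intervals overlapped. The 43 peaks of 8 tags or more with a fold under 10 were at 65.1%. By chromosome, the Giemsa-negative share was higher at 8 tags or more than at 5 tags on 12 of 13 chromosomes. These included chromosomes 13, 21 and 15, with only 2, 3 and 7 peaks of 8 tags or more. Among the 9 chromosomes with 20 such peaks or more, the share was higher on 8. The exception was chromosome 6, at 40% in both sets. GC content, gene content and copy number of the bands were not measured here, and their part in the result was not tested.

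Peaks of 8 tags or more also lay closer to the chromosome ends, although the outermost 5 Mb had been left out. Between 5 and 10 Mb from a limiting end lay 60 of them (16.9%, interval 13.2 to 21.3), against 6.78% of 5-tag peaks (5.82 to 7.83) and 7.10% of placed length. Of the 46 peaks with 20 tags or more, 18 (39.1%, interval 25.1 to 54.6) lay there, and of the 308 with 8 to 19 tags, 42 (13.6%, interval 10.0 to 17.98). Adjoining peaks were counted singly. The 18 included 4 peaks of 4q35.1 with gaps of at most 29 bp and 2 of 10q26.2 with a gap of 53 bp. The interval of the 18 can thus be too narrow. Between 40 and 80 Mb the shares were 28.8% at 8 tags or more and 41.8% at 5 tags. Over 80 Mb they were close, at 13.8% (interval 10.4 to 17.9) and 12.9% (11.6 to 14.2), with 12.3% of placed length. Position and band class overlap in part. Over 20 Mb from an end, the Giemsa-negative share was 60.8% (n = 227, interval 54.1 to 67.2) at 8 tags or more, against 44.3% (n = 2002, interval 42.1 to 46.5) at 5 tags.

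**Figure D3:**
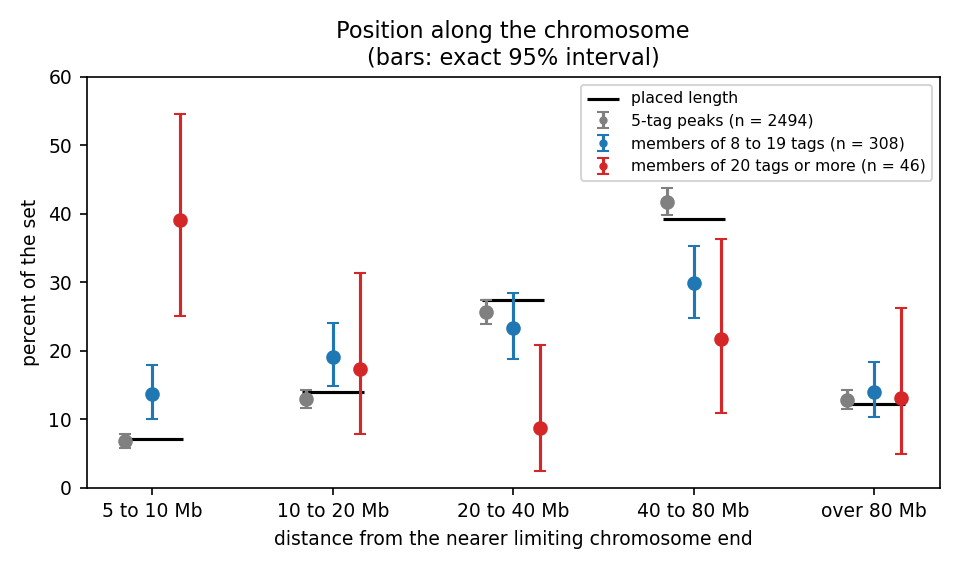
The percentage of each set is plotted by distance from the nearer limiting chromosome end, for 5-tag peaks, peaks of 8 to 19 tags and peaks of 20 tags or more, with exact 95% intervals as bars; black lines give the share of placed length. At 5 to 10 Mb the sets lie at 6.78%, 13.6% and 39.1%, above a placed length of 7.10% in the 2 sets of 8 tags or more only. Adjoining peaks are counted singly.

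The 13 chromosomes differed in how many of their peaks were deep. The 5-tag peaks were spread more evenly, from 13.2 (chromosome 1) to 18.9 (chromosome 6) per 10 Mb of placed length. Peaks of 8 tags or more ranged from 0.223 to 4.38 per 10 Mb. The number of 5-tag peaks is part of the percentages that follow. Chromosome 12 had 51 of them beside 178 5-tag peaks, or 22.3% of both together (interval 17.1 to 28.2), and chromosome 11 had 47 beside 201 (18.95%, interval 14.3 to 24.4). The value for all 13 was 12.4%. Chromosome 13 was lowest, with 2 beside 125 (1.57%, interval 0.191 to 5.57), followed by chromosome 21 with 3 beside 52 (5.45%) and chromosome 15 with 7 beside 105 (6.25%). Chromosomes 1, 2, 11 and 12 together held 58.8% of the peaks of 8 tags or more and 40.8% of the 5-tag peaks. The intervals of chromosomes 11 and 12 overlapped, as did those of chromosomes 13, 15 and 21. Adjoining peaks were counted singly, so these intervals can be too narrow.

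Median fold varied less than number. It was 19.6 on chromosome 8, 19.4 on chromosome 11 and 18.4 on chromosome 10, and 14.7 on chromosome 1 and 14.8 on chromosome 12, among chromosomes with 20 such peaks or more. Chromosome 6 had 25 of them, none above 18 tags or a fold of 25.5. The copy number of these chromosomes in the cell line is not known from the list, and its part was not tested.

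**Figure D4:**
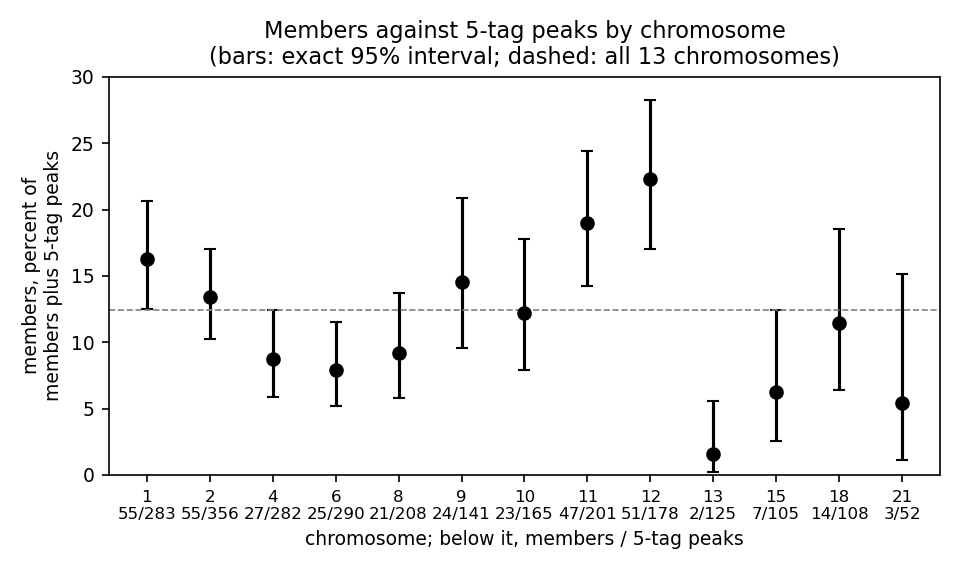
For each chromosome, the peaks of 8 tags or more are plotted as a percentage of these and the 5-tag peaks together, with exact 95% intervals as bars and both counts under the axis; the dashed line is the value of all 13 chromosomes, 12.4%. Chromosomes 12 (22.3%), 11 (18.95%) and 1 (16.3%) lie above the line and chromosomes 6 (7.94%) and 13 (1.57%) below it, each with a bar that does not reach the line. The bar of chromosome 1 ends just above the line, at 12.5%. Adjoining peaks are counted singly, so bars can be too short.

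Of 465 bands of the regions, 169 held at least 1 peak of 8 tags or more and 95 held exactly 1. The 17 bands with 5 or more held 122 peaks and 149 5-tag peaks. These bands were picked for their counts, so nothing is read from their totals. Giemsa-negative bands made up 12 of the 17, 100 of the 169 and 235 of the 465. Bands 12q24.31 and 2p11.2 held 13 each, 11q13.1 held 12, 4p16.1 held 9 and 9q34.11 held 8. The 13 peaks of 12q24.31 stood at 8 separate places and the 12 of 11q13.1 also at 8, while those of 2p11.2 stood at 2.

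Some bands had more peaks of 8 tags or more than 5-tag peaks. Band 12p11.21 had 7 and 0, at 6 places from 30740095 to 32003528 of chromosome 12, with 10 to 18 tags and a median fold of 12.5. Band 11q12.3 had 7 and 2, 9q34.11 had 8 and 4, 2p11.2 had 13 and 9, and 1p36.11 had 5 and 3. The peaks of 8 tags or more in these bands stood at 4, 5, 2 and 3 places, respectively. Counted by place, those of 2p11.2 and 1p36.11 did not outnumber the 5-tag peaks. Band 11q12.3 holds SNHG1, a host gene of small nucleolar RNAs, and SLC3A2, the heavy chain of amino acid transporters. Band 11q13.3, with 5 peaks at 5 places and a median fold of 19.6, holds the cyclin gene CCND1, and its largest fold was 29.4, at chr11:70174195-70174397. In 6p22.1, known for its histone genes, 6 peaks had 8 to 18 tags, 4 of them between chr6:26231755-26231963 and chr6:26314320-26314470.

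Neighbouring peaks of 8 tags or more were common. Another one lay within 10 kb of 95 of the 354 (26.8%, interval 22.3 to 31.8), whereas another 5-tag peak lay within 10 kb of 4.09% of 5-tag peaks (3.35 to 4.94), which were more numerous. Any other peak of the list lay within 10 kb of 39.5% and 6.86%, respectively. The gathering was mostly of adjoining pieces. After merging of peaks with gaps of up to 1 kb, the shares were 5.99% (interval 3.70 to 9.10) and 3.36% (2.68 to 4.15), and these intervals overlap. Peaks of 8 tags or more were sparser, at 2.20 per 10 Mb of placed length before merging, against 15.5 for 5-tag peaks. The overlap therefore does not show that the 2 sets were grouped alike. The share with any other peak nearby was not computed after merging. Intervals for grouped peaks can be too narrow, since adjoining peaks may share fragments.

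The 95 peaks formed 34 groups, 22 of them pairs, and with the 259 single peaks they made 293 places. Of the 34 groups, 28 spanned under 3 kb and 24 had no gap above 1 kb. Median tags were 12 in groups and 10 in single peaks, and median folds were 17.9 and 16.2. A further 45 of the single peaks had a peak of fewer than 8 tags within 10 kb.

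The largest group lay in 2p11.2, from 87440841 to 87447197 of chromosome 2, where 11 peaks followed each other within 6.36 kb at a median distance of 526 bp between midpoints. They were alike, with 9 to 16 tags and folds of 10.8 to 18.9. The band also holds CD8A, the gene of a T cell coreceptor. A pair at 89933354 to 89933801, with 10 tags each, completed the 13 peaks of the band.

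The group with the most tags lay in 4q35.1, from 186123377 to 186126035 of chromosome 4. Its 4 peaks, separated by at most 29 bp, held 248 tags with folds of 53.9, 63.7, 38.8 and 24.0 in order along the chromosome. A second place in the band, 185008894 to 185010778, held a pair with 145 and 17 tags and folds of 53.3 and 36.3. The 6 peaks of 4q35.1 thus stood at 2 places and had a median fold of 46.0, the highest of the 17 bands with 5 peaks or more.

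In 12q24.31, 4 peaks lay at 123517320 to 123519067 of chromosome 12. Their folds were 14.3, 24.5, 29.4 and 29.4, and 5 peaks of fewer than 8 tags lay within 10 kb. Another 3 lay at 123962430 to 123963622, with folds of 6.78, 22.02 and 15.1 and 12 to 20 tags. In 11q12.3, 4 peaks at 62363726 to 62365706 of chromosome 11 held 83 tags with folds of 17.9 to 23.4.

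Groups of 4 with 45 to 49 tags each were found in 2q36.3, 9q34.11, 1q21.1 and 10p14. That of 2q36.3 (chromosome 2, 230135882 to 230137415) lay in a gpos100 band and had folds of 8.72 to 24.5. That of 9q34.11 (chromosome 9, 131197186 to 131199439) had folds of 13.6 to 29.4. That of 10p14 (chromosome 10, 11365812 to 11366947), a gpos75 band with the GATA factor gene GATA3 and the splicing regulator gene CELF2, had folds of 8.72 to 33.9. That of 1q21.1 (chromosome 1, 147114578 to 147123906) differed from the others in span and height, with 9.33 kb and folds of 7.34 to 9.28. The last of the 10 largest groups, in 8q24.3 (chromosome 8, 140833566 to 140834745), had 3 peaks with folds of 24.5 to 29.4. Of the 12 groups of 3 or more, 9 lay in Giemsa-negative bands, as did 21 of all 34 groups and 163 of the 259 single peaks.

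**Figure D5:**
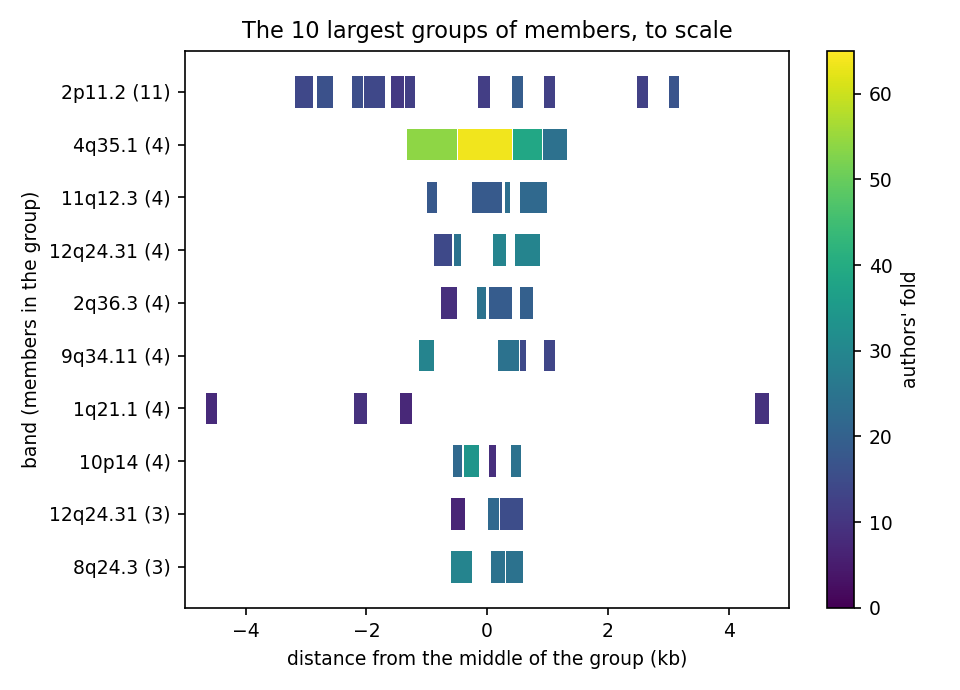
The 10 largest groups of peaks are drawn to scale around the middle of each group, with distance in kb on the horizontal axis, 1 row per group and colour for the authors' fold. The 4 peaks of 4q35.1 adjoin each other with folds up to 63.7, whereas the 11 of 2p11.2 spread over 6.36 kb at folds of 10.8 to 18.9 and the 4 of 1q21.1 over 9.33 kb at folds under 10.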

How the data were processed

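The authors deposited 1 peak list for the ChIP library, with no header and, per the submitters' processing notes, on build hg18. For alignment, peak calling and thresholds, nothing is given in the sources used here. The fourth deposited column was read as a ratio, the fold over background, and the fifth as a count of tags, unscaled. Both readings come from the values. Total depth is not known from the list. Tag counts limit the precision of each peak.

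Midpoints were placed on hg18 bands, contigs and lengths held in R packages (R 4.3.3, with GenomeInfoDb 1.38.1, IRanges 2.36.0, circlize 0.4.16). Counts, shares and intervals were computed in Python 3.11.15 (pandas 2.3.3, scipy 1.17.1, numpy 2.4.6) and drawn with matplotlib 3.10.9. Positions are printed from 1. The peaks named were the 10 of highest fold, the 10 with most tags and the 10 largest groups. Other named peaks and bands were chosen after their values were seen. The members and lists were chosen with earlier results of these data known. All 15 gene symbols were found in RefSeq of GRCh38.p14, in the band given; band limits can differ between builds. The planned work on gene features, gene lists, GC content and motifs would need hg18 annotation and sequence, which were not used here. In 20 simulated lists, the exact interval held the true Giemsa-negative share in 18.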

Additional observations from a re-analysis of the deposited data

How the results depend on the processing

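Of 172 comparisons of a value with an alternative, 148 stayed inside the interval of the value reported (for the count, within 1.5 times) and 24 moved outside. In 104 of the 172, 1 chromosome was left out, so most peaks were shared with the value reported. Values of 5-tag peaks could not change with the tag minimum, yet they count as inside. The number inside is therefore no measure of how firm the results are. Leaving out each chromosome in turn, the peaks of fold under 10 or the group in 2p11.2 was added after seeing the data. None of the 104 values with a chromosome left out moved outside. Over 20 alternatives each, the Giemsa-negative ratio was 1.40 to 1.55 and the gpos100 ratio 0.204 to 0.313. The alternatives included merged peaks and minimums of 10 and 20 tags, which gave the upper ends of 1.55 and 0.313, respectively. With minimums of 10 and 20 tags, there were by construction 214 and 46 peaks, or 5.52% and 1.19% of the same regions. Their median widths were 241 and 388 bp, and 33.2% and 21.7% had another within 10 kb. As a percentage of such peaks and 5-tag peaks together, chromosome 12 then had 14.8% and 3.26%, chromosome 11 had 13.4% and 3.83%, and chromosome 13 had 0% with 20 tags. The number of such peaks falls with the minimum over all 13 chromosomes, while the 5-tag peaks stay the same. These shares are thus not to be set against the 12.4% of all 13 at 8 tags. With 20 tags, the median fold was 19.8 and 50.0% had a fold of 20 or more. A fold of 15 or more was reached by 57.9% and of 30 or more by 5.08%. Merging within 1 kb lowered the share with a neighbour to 5.99% and gave a median width of 233 bp. A limit of 10 Mb from the ends gave 8.23% of the same regions and 22.1% with a neighbour. Within 50 kb, 35.3% had a neighbour, against 16.3% of 5-tag peaks, and within 2 kb 23.2% had one, against 1.12% of 5-tag peaks. For the other values that moved, the cause was not tested. No paired analysis was possible because there is 1 peak list. Gene feature and motif alternatives were not run. Few tags and few peaks per band limit every subset.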

Other observations

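Of the 65 bands with at least 10 5-tag peaks, 36 had no peak of 8 tags or more. These 36 held 451 5-tag peaks. The 2 darkest Giemsa classes made up 25 of the 36, 8 of the other 29 and 107 of all 465 bands. A minimum of 10 5-tag peaks favours long bands. The largest was 10q21.1, a gpos100 band with 21 5-tag peaks over 7.90 Mb of placed length. Next came 6q14.1, 6q16.1 and 6q21 on chromosome 6, with 17 each. These bands were picked for their counts, and a few peaks would be enough to change the list.

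A further 213 peaks of 8 tags or more lay on the same 13 chromosomes outside the interior regions, 135 of them within 5 Mb of an end and 78 in or next to centromeric or heterochromatic bands only. In 18q21.33, the band of the apoptosis inhibitor gene BCL2, a single peak (chr18:59036752-59037089) had 46 tags and a fold of 34.9. In 11q13.1, the band of the nuclear noncoding RNA genes MALAT1 and NEAT1, 3 peaks of 10 to 11 tags lay at 65024340 to 65027178 of chromosome 11 with folds of 12.1 to 17.1. With 7 peaks of fewer than 8 tags within 10 kb, this group had the most such neighbours of the 34. These places were chosen after their values were seen.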
